A study of Mus musculus with 4 samples.

Results

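The genes described are 38 cell cycle and proliferation genes of the mouse, 10 that act in S phase and 28 that act in mitosis, out of 31085 genes named on a whole-genome Agilent array. They were chosen by name: every probe that was not a control spot and whose gene name in the scanner files was that of a member was used, in 63 spots of 54 probes. The labels give the tissue as lung. Each of 4 groups had 1 array, hybridised in 1 colour with RNA pooled from 4 samples, so no difference below has a replicate check and the spread between mice is not known. The groups were Pla2g3-/- antigen challenged, Pla2g3-/- control, Pla2g3+/+ antigen challenged and Pla2g3+/+ control. Pla2g3 encodes a secreted phospholipase A2, and the study asked how its deletion changes the lung in a model of allergic asthma. Per the labels, mice were sensitised by intraperitoneal ovalbumin (10 µg) with alum (1.3 mg) on days 0 and 14. They inhaled 1% ovalbumin for 30 min on each of days 26, 27 and 28, and lungs were taken 48 h later. The labels attach this protocol to all 4 samples, and what the controls received, the strain, the age and the deleted part of Pla2g3 are not given in the sources used here.

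The deposited values come in 2 forms, a value table and the scanner files, and under a given sample name the measurements of the 2 differ. Log2 signals of a table column and the scanner array of the same name correlated at 0.911 to 0.919 across probes, whereas correlations between arrays of 1 source were at least 0.985. Every comparison is therefore given in each source, and levels set across sources are from separately normalised values. Levels are on the log2 scale with the 75th percentile of the array at 0. Pla2g3 was higher in both arrays labelled knockout, by 25.4-fold in challenged and 22.1-fold in control arrays of the table and by 14.9-fold and 9.14-fold in the scanner files, so the names KO-labelled and WT-labelled are used for the arrays, and each genotype direction is that of the labels. The table carried strong alveolar and endothelial markers: 10 alveolar epithelial genes had median levels of 4.44 to 4.60 and 8 endothelial genes 2.66 to 2.92. In the scanner files the same lists had medians of 0.16 to 0.60 and -4.19 to -3.57, while 5 airway basal cell genes had medians of 1.82 to 2.06, against -3.98 to -3.82 in the table. Other airway lists were high in the scanner files too. There 5 club cell genes had medians of 6.93 to 7.26, against 4.12 to 4.98 in the table. For 7 ciliated cell genes the medians were 3.12 to 3.44, against 0.77 to 0.99 in the table. Which source holds the lung samples named by the labels was not tested. Between 79.2% and 82.1% of spots were above background on each array.

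Cells that divide copy their DNA in S phase and separate it in mitosis, and each step has its own wave of transcripts. The E2F factors drive genes for DNA copying as S phase begins, while the MuvB complex with B-Myb and FoxM1 drives mitotic genes later, often through CHR and CCAAT elements in their promoters. In the adult lung most cells rest outside the cycle, and transcripts of both waves come mainly from the dividing minority, such as macrophages, lymphocytes and epithelial cells after injury. In whole-tissue RNA, fewer cells of a type and less RNA per cell cannot be told apart.

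Promoters of 4 members are shown because they cover the patterns described below: Ccnb2 and Mki67 for mitosis, Mcm6 for S phase and Pttg1 for the mitotic gene that stood apart from the others. Each is the 150 bases before the start of the gene, 5′ to 3′ on the gene's strand, from RefSeq on GRCm38.p6. All lie on the minus strand, Ccnb2 at chr9:70421555-70421704, Mki67 at chr7:135716380-135716529, Mcm6 at chr1:128359706-128359855 and Pttg1 at chr11:43425982-43426131. Capitals mark matches to the motifs listed after the sequences.
Ccnb2: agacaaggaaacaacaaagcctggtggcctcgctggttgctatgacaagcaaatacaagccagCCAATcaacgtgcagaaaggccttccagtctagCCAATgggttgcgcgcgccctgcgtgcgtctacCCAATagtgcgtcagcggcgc
Mki67: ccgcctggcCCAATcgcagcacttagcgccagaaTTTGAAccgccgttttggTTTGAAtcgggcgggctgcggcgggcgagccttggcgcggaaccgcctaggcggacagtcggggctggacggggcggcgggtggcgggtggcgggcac
Mcm6: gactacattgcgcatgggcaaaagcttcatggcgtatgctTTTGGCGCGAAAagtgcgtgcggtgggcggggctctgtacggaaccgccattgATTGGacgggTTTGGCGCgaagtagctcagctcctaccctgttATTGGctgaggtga
Pttg1: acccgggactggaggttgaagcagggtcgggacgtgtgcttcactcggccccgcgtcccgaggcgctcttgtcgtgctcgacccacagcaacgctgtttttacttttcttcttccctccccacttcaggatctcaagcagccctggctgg

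Motifs were searched on both strands of windows of 300 bases, 250 before and 50 after the start, and matches may overlap one another. The CHR was read as TTTGAA or TTTAAA, the CCAAT box as CCAAT, and E2F sites as TTTCCCGC, TTTCGCGC, TTTGCCGC or TTTGGCGC. RefSeq promoters were found for 32 of the 38 members. Among 23 mitosis members 19 held a CHR match, 19 a CCAAT match and 1 an E2F match. Among 9 S phase members 5 held a CHR match, 6 a CCAAT match and 4 an E2F match. Of all 27025 promoters of this length, 27.8% held the CHR letters, 37.9% CCAAT and 2.32% an E2F match. Mcm6, a helicase subunit, had 3 E2F and 2 CCAAT matches, all within the stretch shown, while Ccnb2, a B-type cyclin, had 3 CCAAT matches there. The 2 CHR matches of Ccnb2 in the window were not within the stretch shown. Melk, Nusap1 and Pttg1 held none of these letters in the window. A match is a description of the letters and does not show binding.

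In both sources 36 of the 38 genes were above background on all 4 arrays. The exceptions were Aurkb, a mitotic kinase, on 1 array in each source, and Cenpf, a kinetochore protein, on 2 arrays of the table and 1 scanner array. Where 1 of the arrays compared was at background it was set to the lowest signal above background on that array, so that the difference is a bound. In the scanner files Agilent's own error of a difference had a median of 0.20 on the log2 scale for genes above background on all arrays (0.07 to 0.25), an error of reading spots that says nothing of how mice differ. No such error comes with the table.

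The comparison of challenged with control arrays asks whether antigen changes the amount of proliferation transcripts. In the table's KO-labelled pair 20 of 28 mitosis genes were at least 2-fold higher after challenge, against 2.67% of all genes. In the WT-labelled pair 0 of 27 compared were, against 1.9% of all genes, while 26 were above 0 and Pttg1 was below it. Mki67, a coat protein of mitotic chromosomes and the usual marker of proliferation, had a level of 1.58 in the KO-labelled challenged array, against 0.01 in its control, and of 1.09 in the WT-labelled challenged array, against 0.54 in its control. The KO-labelled control was the lowest array and both challenged arrays stood above both controls. The differences were 1.57 in the KO-labelled pair (2.97-fold) and 0.55 in the WT-labelled pair (1.46-fold).

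Top2a, the topoisomerase that untangles chromosomes, had -1.80 in the KO-labelled challenged array, against -3.35 in its control, and -2.13 in the WT-labelled one, against -2.61 in its control. Birc5, the survivin subunit of the chromosomal passenger complex, had 1.51 in the KO-labelled challenged array, against 0.04 in its control, and 1.08 in the WT-labelled challenged array, against 0.43 in its control. Cdk1, the kinase that starts mitosis, had -1.37 in the KO-labelled challenged array, against -2.71 in its control, and -1.81 in the WT-labelled challenged array, against -2.28 in its control. All of these genes repeated the order of Mki67, with the KO-labelled challenged array highest and the KO-labelled control lowest. Its partner cyclins were close to it in size: the KO-labelled pair differed by 1.36 for Ccna2, 1.21 for Ccnb2 and 1.20 for Ccnb1, and the WT-labelled pair by 0.49, 0.35 and 0.63.

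**Figure D1:**
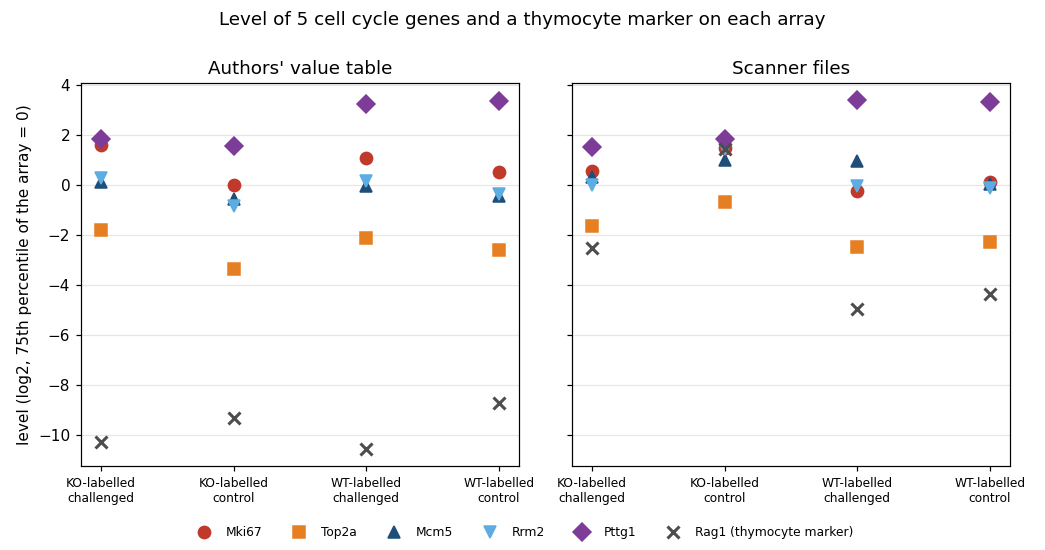
Log2 level of Mki67, Top2a, Mcm5, Rrm2, Pttg1 and the thymocyte gene Rag1 on each array, in the value table (left) and the scanner files (right); each point is 1 array. In the table Mki67 was 0.01 in the KO-labelled control, the lowest of the 4 arrays, and Rag1 was at background on all 4, whereas in the scanner files Mki67 (1.47) and Rag1 (1.43) were highest in that control. Pttg1 was lower in both KO-labelled arrays of each source.

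In the table's KO-labelled pair 22 of the 38 members were at least 2-fold higher after challenge and none was 2-fold lower, while 2.67% of all genes tested were higher by that rule and 0.797% lower. These were 20 of the 28 mitosis genes and 2 of the 10 S phase genes. In the WT-labelled pair no member reached 2-fold, against 1.9% of all genes higher and 0.651% lower. The KO-labelled response was the larger in all 36 genes above background on every array, and both responses were above 0 in 35 of them, Pttg1 being the exception. The difference of responses, KO-labelled minus WT-labelled pair, had a median of 0.30 over the S phase genes, 0.74 over the mitosis genes and 0.01 over all genes. Ttk, a spindle checkpoint kinase (1.62), Top2a (1.07) and Mki67 (1.02) were at least 2-fold higher in that comparison and no member was lower, against 1.5% of all genes higher and 1.53% lower. For Ttk the KO-labelled control level (-8.21) was close to the lowest signal above background on that array (-8.40). Its difference of responses in the scanner files was 0.22.

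The other mitosis genes of the table's KO-labelled pair are given by role, and differences under 1.00 did not reach 2-fold. The motor proteins Kif20a, Kif11 and Kif23 differed by 1.31, 1.22 and 0.73, and the kinetochore motor Cenpe by 1.57. The checkpoint kinases Ttk, Bub1b and Bub1 differed by 1.65, 1.02 and 0.73. Ttk was 0.04 in the WT-labelled pair, and its levels were low on every array, from -8.21 in the KO-labelled control to -6.56 in the KO-labelled challenged array. The spindle kinases Plk1 and Aurka differed by 1.11 and 1.04 and the spindle assembly factor Tpx2 by 1.18. The ubiquitin-conjugating enzyme Ube2c and Cdc20, which both serve the anaphase-promoting complex, differed by 1.19 and 0.81. Cdca8, a partner of Birc5, differed by 1.27, Cdca3 by 1.46, the kinase Melk by 1.32, Nusap1, a spindle protein, by 1.20, Prc1, which bundles the central spindle, by 0.98, and Foxm1, the transcription factor of this wave, by 0.88. Cenpf was at least 0.92 and Aurkb at least 0.37 higher.

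S phase genes moved less in the table. The KO-labelled pair had a median difference of 0.56 over the 10 S phase genes and 1.20 over the 28 mitosis genes, against 0.02 over all genes. In the WT-labelled pair the medians were 0.33 and 0.48, against 0.01. The 2 S phase genes past 2-fold were Rrm2, the small subunit of ribonucleotide reductase (1.14), and Ccne1, the cyclin of S phase entry (1.09), with Tk1, a thymidine kinase, just below (1.00). Cdc6, which loads the helicase on DNA, differed by 0.84. The helicase subunits ran from 0.28 (Mcm4) to 0.68 (Mcm5), and the replication clamp Pcna differed by 0.30. Mcm5 had 0.11 in the KO-labelled challenged array, against -0.57 in its control, and -0.02 in the WT-labelled one, against -0.42 in its control, the same order of arrays as Mki67 with smaller gaps. The probes used for Pcna and Rrm2 are placed by the files on chromosome 19 (mm9), whereas the genes lie on chromosomes 2 and 12, so signal from a similar copy cannot be told apart from that of the gene.

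**Figure D2:**
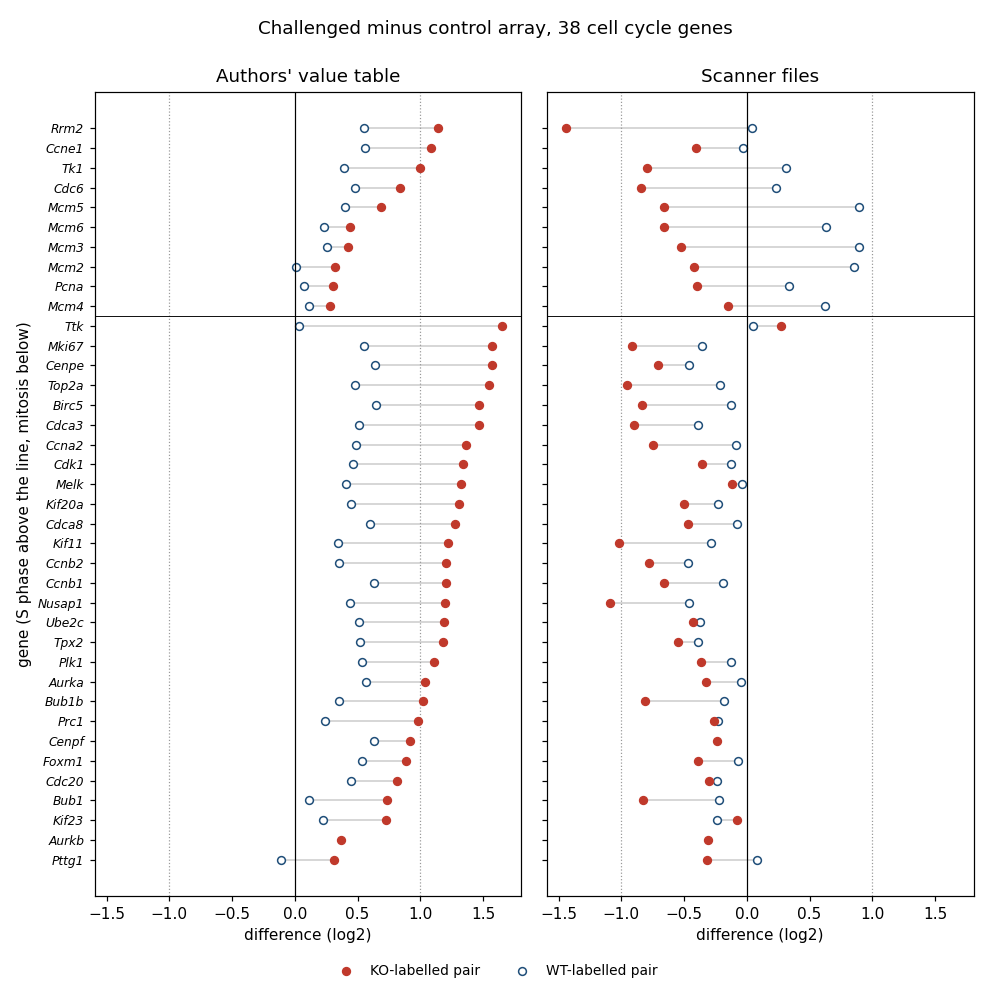
Log2 difference of the challenged from the control array for each of the 38 genes, in the value table (left) and the scanner files (right), with filled points for the KO-labelled pair and open points for the WT-labelled pair; dotted lines mark 2-fold, and a missing point is a gene at background on both arrays. In the left panel 22 filled points lie beyond 2-fold higher and no open point does, and in the right panel the MCM genes have open points right of 0 and filled points left of 0.

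The scanner files gave another picture of the same comparison. In the KO-labelled pair all 10 S phase genes and 27 of the 28 mitosis genes were lower in the challenged array. The medians were -0.59 and -0.49, against -0.06 over all genes. Rrm2, Nusap1 and Kif11 were at least 2-fold lower (-1.44, -1.09 and -1.02) and no member was 2-fold higher, against 3.39% of all genes lower and 3.87% higher. Mki67 had 0.55 in the KO-labelled challenged array, against 1.47 in its control, and -0.22 in the WT-labelled one, against 0.13 in its control. Both challenged arrays were below their own control, and both KO-labelled arrays were above both WT-labelled ones.

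In the WT-labelled pair of the scanner files the S phase and mitosis genes parted. Among the S phase genes 9 of 10 were higher in the challenged array (median 0.48), whereas 24 of the 26 mitosis genes compared were lower (median -0.22), and 8 S phase genes lay above the highest mitosis gene. No member reached 2-fold, against 1.9% of all genes higher and 1.69% lower. Mcm5 had 0.34 in the KO-labelled challenged array, against 1.00 in its control, and 0.95 in the WT-labelled one, against 0.06 in its control. The WT-labelled challenged and KO-labelled control arrays were thus both high and the other two low. The WT-labelled differences of the helicase subunits were 0.90 for Mcm5, 0.89 for Mcm3, 0.86 for Mcm2, 0.63 for Mcm6 and 0.62 for Mcm4, each more than 3 times the spot error of 0.20. Pcna (0.34), Tk1 (0.31) and Cdc6 (0.23) followed, and Rrm2 (0.04) and Ccne1 (-0.03) were within the spot error. Among mitosis genes the WT-labelled pair ran from -0.47 for Ccnb2 to 0.08 for Pttg1.

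The difference of responses in the scanner files, KO-labelled minus WT-labelled pair, was below 0 for all 10 S phase genes and at least 2-fold lower for 7 of them, the lowest being Mcm5 (-1.56), Rrm2 (-1.48) and Mcm3 (-1.42). No mitosis gene reached 2-fold, and 3.54% of all genes were lower by that rule and 3.44% higher. The median was -1.19 over S phase genes and -0.31 over mitosis genes, against -0.04 over all genes. In the table the same medians were 0.30 and 0.74.

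The comparison of KO-labelled with WT-labelled arrays asks whether the genotype label goes with the amount of these transcripts. In the table the KO-labelled control was the lowest of the 4 arrays for 34 of 36 genes above background throughout, 8 of 10 S phase genes and all 26 mitosis genes. The KO-labelled challenged array was the highest for 34 of the 36. Control arrays had a median difference, KO-labelled minus WT-labelled, of -0.16 over S phase and -0.42 over mitosis genes, and challenged arrays one of 0.13 and 0.35, while all genes had -0.00 and 0.01. Only Pttg1 passed 2-fold, in both treatments, where 2.52% of all genes were lower and 1.76% higher in challenged arrays, and 2.38% lower and 1.57% higher in controls. Except for Pttg1, the differences between the KO-labelled and WT-labelled challenged arrays ran from -0.04 for Bub1b to 0.70 for Melk.

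In the scanner files the KO-labelled control was instead the highest array for 30 of 36 genes, and the WT-labelled challenged array the lowest for 25, of which 24 were mitosis genes. Control arrays differed by a median of 1.08 over mitosis genes and 0.73 over S phase genes, against -0.03 over all genes. Of the members 18 were at least 2-fold higher in the KO-labelled control, 16 in mitosis and 2 in S phase, and Pttg1 was 2-fold lower, against 3.23% of all genes higher and 1.89% lower. Top2a had -1.64 in the KO-labelled challenged array, against -2.49 in the WT-labelled one, and -0.68 in the KO-labelled control, against -2.28 in the WT-labelled one. Both KO-labelled arrays were above both WT-labelled ones, and the control difference of 1.59 (3.02-fold) was the largest among members. Rrm2 had 0.00 in the KO-labelled challenged array, against -0.06 in the WT-labelled one, and 1.44 in the KO-labelled control, against -0.10 in the WT-labelled one. For Rrm2 the KO-labelled control alone was high.

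Challenged arrays of the scanner files differed by a median of 0.75 over mitosis genes and -0.28 over S phase genes, against -0.05 over all genes. Tpx2 (0.97), Ube2c (0.92) and Cdc20 (0.91) were the highest. Pttg1 and Mcm3 (-1.25) were at least 2-fold lower and no member was 2-fold higher, against 2.59% of all genes lower and 3.87% higher. The other helicase subunits were lower too, by 0.88 for Mcm6 (2.70 in the KO-labelled and 3.58 in the WT-labelled array), 0.61 for Mcm5, 0.56 for Mcm2 and 0.25 for Mcm4. Beside Pttg1, Melk and Ttk did not follow the other mitosis genes: Melk lay between -0.24 and -0.04 and Ttk between -5.80 and -5.43 on all 4 arrays.

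**Figure D3:**
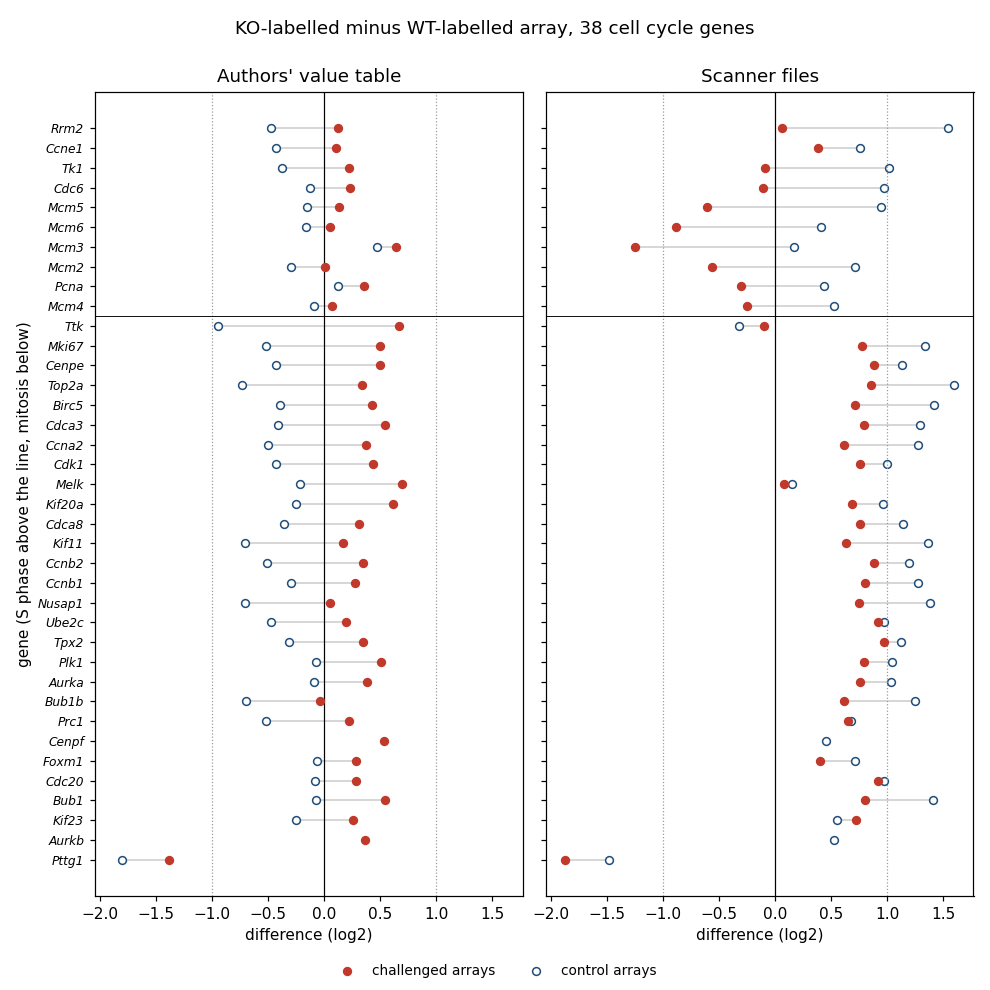
Log2 difference of the KO-labelled from the WT-labelled array for each of the 38 genes, in the value table (left) and the scanner files (right), with filled points for challenged and open points for control arrays; dotted lines mark 2-fold, and a missing point is a gene at background on both arrays. Pttg1 lies left of -1 in both panels and both treatments, whereas the open points of most other mitosis genes lie left of 0 in the table and right of 0 in the scanner files.

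Thymocyte transcripts moved with the high control in the scanner files. All 12 genes of an immature thymocyte list were above background on every scanner array, with a median level of -2.71 in the challenged and 0.09 in the control array of the KO label, and of -4.41 in the challenged and -3.66 in the control array of the WT label. Their summed linear level, as multiples of the 75th percentile, was 27.5 in the KO-labelled control and 3.51 to 4.48 on the other arrays. Rag1, the recombinase of developing lymphocytes, had 1.43 in the KO-labelled control, against -4.37 in the WT-labelled control. Mature T cell genes (12) had a sum of 28.8 in the KO-labelled control and 2.70 to 4.66 on the other arrays, with Ctla4 at background on both WT-labelled arrays. Of the 12, 11 were higher in the KO-labelled than in the WT-labelled control, and Foxp3 was not (-0.02). Within the KO-labelled pair 9 were lower after challenge and 3 were higher, Ctla4 the most (0.77). In the table both lists were lower in the KO-labelled control than in the WT-labelled arrays: Rag1 and Rag2 were at background on all 4 arrays and Ptcra on 3, and the thymocyte sum was 3.40 in the challenged and 3.65 in the control array of the KO label, and 3.91 in the challenged and 4.16 in the control array of the WT label. The mature T cell sums of the table were 14.1 (challenged) and 12.0 (control) under the KO label and 19.5 (challenged) and 17.0 (control) under the WT label, with none of the 12 genes at background. The part of these cells in the levels of the cell cycle genes was not tested.

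Other cell type markers also differed between scanner arrays. Neutrophil genes (8) had medians of 0.07 (challenged) and -2.14 (control) under the KO label and of -1.26 (challenged) and -2.35 (control) under the WT label. Their sum was 89.8 in the KO-labelled challenged array and 46.1 to 63.5 on the others, with none at background. B and germinal centre cell genes (9) had a sum of 5.32 in the WT-labelled control and 1.99 to 2.35 on the others, with none at background. Red cell precursor genes (6) summed to 3.72 in the challenged and 8.42 in the control array of the KO label, and to 5.94 in the challenged and 8.72 in the control array of the WT label. Klf1, their defining factor, was at background on 3 of the 4 arrays. Endothelial genes (8) had a median difference of -0.85 between the KO-labelled and WT-labelled controls, with 7 of 8 below 0, 4 at least 2-fold lower (1.89% of all genes) and Tie1 at background in the KO-labelled control. After challenge 4 of the 8 were at least 2-fold higher in the KO-labelled pair (median 0.85), against 3.87% of all genes, and none in the WT-labelled pair. Their sum was 3.57 in the KO-labelled control and 3.98 to 4.69 on the others. Alveolar macrophage genes (10) summed to 21.9 in the KO-labelled challenged array and 8.13 to 15.1 on the others, with none at background. In the table plasma cell genes (6) summed to 9.28 in the KO-labelled challenged array, against 29.2 in the WT-labelled one, and to 10.2 in the KO-labelled control, against 31.7 in the WT-labelled one, with none at background. All 6 were lower under the KO label in challenged arrays, and 4 were lower and 2 higher in controls. Jchain was the lowest in both (-2.22 and -2.17). Scanner sums of these genes were 6.87 to 7.16, with Tnfrsf17 at background on all but the KO-labelled control. Jchain was higher under the KO label there, by 2.03 in challenged arrays and 1.09 in controls. The table's red cell precursor genes summed to 5.34 in the KO-labelled challenged array and to 3.23 to 3.47 on the others. Their medians did not single out that array: -4.30 (challenged) and -4.35 (control) under the KO label, and -4.59 (challenged) and -3.96 (control) under the WT label. The part of all these cell types in the results was not tested either.

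Pttg1 was the member whose genotype difference had the same sign and passed 2-fold in both sources and both treatments. It encodes securin, which holds the chromatid-separating protease separase in check until anaphase. In the table its level was 1.86 in the KO-labelled challenged array, against 3.24 in the WT-labelled one, and 1.55 in the KO-labelled control, against 3.36 in the WT-labelled one. The scanner levels were 1.52 in the KO-labelled challenged array, against 3.39 in the WT-labelled one, and 1.83 in the KO-labelled control, against 3.32 in the WT-labelled one. Both KO-labelled arrays were below both WT-labelled ones in each source. The table's differences were -1.39 in challenged arrays (2.61-fold lower) and -1.80 in controls (3.49-fold lower). Those of the scanner files were -1.87 in challenged arrays (3.67-fold lower) and -1.48 in controls (2.79-fold lower). The second probe of the gene, at chr11:43234562-43234621 (mm9) against chr11:43233801-43233860 for the one used, gave -1.47 in challenged and -2.16 in control arrays of the table, and -1.49 in challenged and -1.57 in control arrays of the scanner files. Its challenge differences were small, 0.31 in the KO-labelled and -0.11 in the WT-labelled pair of the table, and -0.31 in the KO-labelled and 0.08 in the WT-labelled pair of the scanner files.

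Pttg1 lies on chromosome 11, as Pla2g3 does. The other members on this chromosome were Cdc6, Tk1, Top2a, Birc5 and Aurkb. In the table those with a value had differences of 0.22 to 0.43 in challenged arrays and of -0.74 to -0.13 in controls, and in the scanner files of -0.11 to 0.85 in challenged arrays and of 0.53 to 1.59 in controls. None of these 5 shared the direction of Pttg1 in both treatments of both sources. Aurkb had no value between the controls of the table or between the challenged scanner arrays. The probes used for these 5 start from chr11:68865105 (Aurkb, mm9) to chr11:117716978 (Birc5), and that of Pttg1 at chr11:43233801. They therefore do not describe the stretch around Pttg1, and the part of its position was not tested.

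Several members have more than 1 probe, and the probes mostly gave like values. Over 12 genes with at least 2 probes above background on all arrays, the probes of a gene spanned less than 0.5 in 43 of 48 differences in the table and in 40 of 48 in the scanner files, with a median span of 0.15 in each source. Mcm3 was the main exception. Its probes at chr1:20793119-20793178 (used) and chr1:20793136-20793195 (mm9) overlap, yet in the scanner files they differed by -1.25 and 0.01 between the challenged arrays and by 0.17 and 1.51 between the controls. In the table the pair gave 0.64 and -0.00, and 0.47 and -0.26. The challenge differences of both probes were close in the scanner files, 0.89 and 0.95 in the WT-labelled pair. The genotype difference of Mcm3 therefore depends on the probe, and its 2-fold call in challenged scanner arrays holds for 1 of its 2 probes. Tpx2 had 0.97 and 0.13 from its 2 probes between the challenged scanner arrays and 1.13 and 0.25 between the controls, and Ccne1 0.76 and -0.45 between the controls, the used probe's value being the higher in each case. For Cdk1 1 of 3 probes gave -0.62 in the WT-labelled pair of the table, against 0.47 for the probe used.

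Other cell cycle genes were looked at beside the members. Of 32 other mitosis genes, 17 exceeded their KO-labelled control by 2-fold or more after challenge in the table (median 1.05), against 2.67% of all genes. None did in the WT-labelled pair (median 0.33, against 1.9% of all genes), and all 32 were lower in the KO-labelled than in the WT-labelled control (median -0.30). The phosphatase Cdc25c had 1.71 in the KO-labelled and 0.69 in the WT-labelled pair, and the kinesin Kif2c 1.68 and 0.72. Of 23 other S phase genes compared, 4 were at least 2-fold higher in the KO-labelled pair (median 0.46, against the same 2.67% of all genes): Uhrf1 (1.29), Orc1 (1.21), Mcm10 (1.19) and Pole (1.06), which serve DNA methylation upkeep, origin recognition, replication initiation and leading-strand synthesis. The 10 G1 cyclins and kinases and the 14 inhibitors did not follow, with medians of -0.03 and -0.02 in the KO-labelled and 0.02 and 0.04 in the WT-labelled pair and no gene at 2-fold. Cdkn1a, the p21 inhibitor, had 0.51 in the KO-labelled and 0.13 in the WT-labelled pair. Cdkn2a was lower in KO-labelled arrays of the table, by 1.19 in challenged arrays and 1.48 in controls, but not in the scanner files (0.22 in challenged arrays and 0.46 in controls).

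Between the scanner controls, 19 of 32 other mitosis genes exceeded 2-fold in favour of the KO label (median 1.09), against 3.23% of all genes, led by the kinesin Kif15 (2.03). Over 23 other S phase genes that median was 0.67, with 3 at 2-fold, against the same 3.23%. Their WT-labelled challenge median was 0.38, against -0.13 for the other mitosis genes, and their difference of responses was at least 2-fold lower for 12 of 23 (median -1.03), against 3.54% of all genes. Nek2, a centrosome kinase, went the other way among mitosis genes and was higher after challenge (0.66 in the KO-labelled and 0.83 in the WT-labelled pair). The 10 G1 genes had a KO-labelled challenge median of -0.20. Of them 1 was 2-fold higher (Myc, 1.20) and 1 lower (E2f2, -1.85), against 3.87% of all genes higher and 3.39% lower. All 14 inhibitors were higher in the KO-labelled than in the WT-labelled control (median 0.41), with 1 at 2-fold, against 3.23% of all genes.

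**Figure D4:**
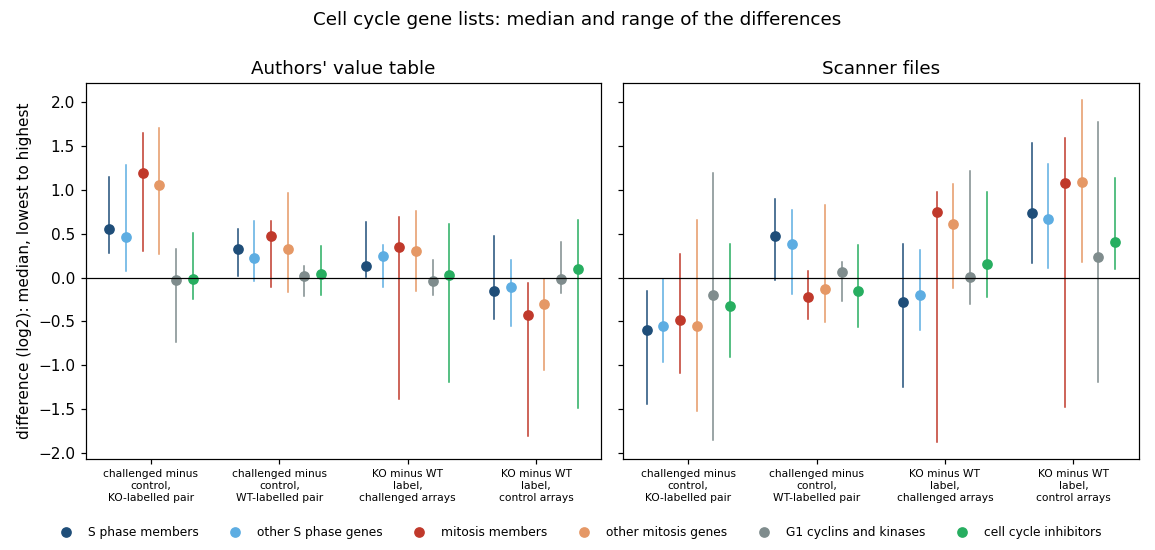
Median (points) and range (lines) of the log2 differences of 6 cell cycle gene lists in 4 comparisons, in the value table (left) and the scanner files (right). In the left panel the mitosis lists are highest in the KO-labelled challenge comparison (medians of 1.20 and 1.05) and the G1 and inhibitor lists stay near 0. In the right panel the medians of the S phase lists lie above 0 and those of the mitosis lists below 0 in the WT-labelled pair.

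Averaged effects were fitted over all genes with limma, in an additive model of genotype label and treatment. Its residual spread is the disagreement between both pairs and has 1 degree of freedom. limma moderates this spread towards one estimated from all genes, and the standard errors and p-values below use the moderated spread. At an adjusted p of 0.05 no gene passed for either effect in either source (0 of 26048 in the table, 0 of 26355 in the scanner files, 0%). The members' lowest adjusted p in limma was 0.566 for challenge and 0.180 for genotype label in the table, and 0.514 and 0.426 in the scanner files. At an unadjusted p under 0.05 limma gave 16 of 38 members for challenge in the table, all higher in challenged arrays, against 8.78% of all genes (2286), and 7 in the scanner files, none higher, against 9.55% (2517). For the genotype label it gave 2 members in the table, against 13.8% (3585), and 26 in the scanner files, 25 of them higher in KO-labelled arrays, against 10.7% (2821). Mki67 averaged 1.06 ± 0.33 (SE) higher in challenged arrays of the table and -0.64 ± 0.20 in the scanner files. Pttg1 averaged -1.59 ± 0.15 for the genotype label in the table and -1.68 ± 0.16 in the scanner files, with limma adjusted p of 0.180 and 0.426. With a variance trend in limma Pttg1 passed in the table (adjusted p 0.00285) and not in the scanner files (adjusted p 0.143), and Mcm3 passed in the table (adjusted p 0.0242). The Mcm3 probe fitted was higher under the KO label in the table, by 0.64 in challenged arrays and 0.47 in controls. Its second probe gave -0.0025 and -0.26 there, so the pass holds for the fitted probe only. Between the challenged scanner arrays the fitted probe gave -1.25.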

How the data were processed

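The scanner files give an intensity per spot, made with Agilent Feature Extraction 11.5.1.1 per the file headers and not normalised between arrays, with coordinates on mm9. The authors' deposited value table holds a linear signal per spot. The steps behind it are not stated in any source used here. The plan took the table as an alternative to the scanner files, but since the sources disagreed both were analysed throughout. Each array had 44397 spots, 43020 of them not controls. Scanner spots marked uneven or outlying were left out, and the 19 probes left with no unmarked spot on an array were dropped. The table's signals of the probes kept were not masked by these marks. Saturation was not seen. Log2 scanner intensities had the 75th percentile of the array subtracted, and log2 of the table's signals was used as deposited (75th percentile 1.00). Spots of a probe were averaged, and a gene is its probe with the highest mean over the 4 arrays of a source. Background was Agilent's flag, or for table signals more than 5 times the median of 153 negative controls, a rule that matched the flag for 99.2% of scanner spots. Differences of 2-fold were counted. limma 3.58.1 in R 4.3.3 was fitted over all genes above background on at least 1 array, with Benjamini-Hochberg adjustment. Its step was tested on simulated data. The 1 array per group limits the precision.

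Other genes named are, per list, up to 4 above background on all arrays with the largest averaged challenge difference, Pla2g3 and marker genes. The members and lists were chosen with earlier results of these data known. Alternatives were quantile normalization, median scaling, normexp with an offset of 50, other filters, the mean of probes, other folds, the other source, and limma with a variance trend or robust eBayes. Leaving out Pcna and Rrm2 was added after the data were seen. Computations used Python 3.11.15, pandas 2.3.3 and numpy 2.4.6.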

Additional observations from a re-analysis of the deposited data

Results flagged for a closer look

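Some members differed one way in one pair of arrays and the other way in the other pair, by at least 2 times 0.204 in each. This is the median spot error of the scanner files, used for the table too, which has no error of its own. The difference itself was not tested, since each group has 1 array. In the table the KO-labelled minus WT-labelled difference was above 0 in challenged and below 0 in control arrays for Mki67 (0.50 and -0.52), Ttk (0.67 and -0.95), Cdk1 (0.44 and -0.44), Cenpe (0.49 and -0.43) and Cdca3 (0.54 and -0.41). In the scanner files the challenged minus control difference was below 0 in the KO-labelled and above 0 in the WT-labelled pair for Mcm2 (-0.42 and 0.86), Mcm3 (-0.53 and 0.89), Mcm5 (-0.66 and 0.90) and Mcm6 (-0.66 and 0.63). The scanner genotype label difference was below 0 in challenged and above 0 in control arrays for Mcm2 (-0.56 and 0.71) and Mcm5 (-0.61 and 0.95).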

How the results depend on the processing

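Of 151 alternative values, 122 were labelled the same, 27 moved and 2 reversed. A count was the same if equal to the main count or within 1.5 times of it, whatever its direction. A median was the same if it changed by less than 0.204. The other source was an alternative only for the S phase minus mitosis medians, so the tally leaves out how member counts differ between sources. For the KO-labelled challenge, 22 members were 2-fold higher and 0 lower in the table, and 0 higher and 3 lower in the scanner files. No scaling or filter turned the members' median in any comparison. At 1.5-fold the members past the threshold numbered 5 (WT-labelled challenge, 6.31% of all genes), 5 and 6 (genotype label, challenged and control arrays, 9.75% and 9.72%) and 21 (difference of responses, 9.01%) in the table, and 17 and 5 (KO-labelled and WT-labelled challenge, 17.6% and 9.95%), 26 and 29 (genotype label, challenged and control arrays, 15.2% and 12.6%) and 16 (difference of responses, 15.8%) in the scanner files. At 3-fold they numbered 1 (KO-labelled challenge, 1.15% of all genes), 0 (genotype label, challenged arrays, 2.06%) and 1 (difference of responses, 1.05%) in the table, and 0 (KO-labelled challenge, 3.18%), 1 and 1 (genotype label, challenged and control arrays, 2.49% and 1.88%) and 0 (difference of responses, 2.99%) in the scanner files. With no filter 2 passed in control arrays of the table, with normexp 1 in the KO-labelled challenge of the scanner files, and with the mean of a gene's probes 1 in challenged scanner arrays. The S phase minus mitosis median reversed between sources: 0.70 (scanner) and -0.15 (table) for the WT-labelled challenge, and -0.35 and 0.27 for control arrays. It moved from source to source for the KO-labelled challenge (-0.11 and -0.64) and the challenged arrays (-1.03 and -0.23). The cause was not tested. Over all genes limma passed 115 genes for challenge and 1031 for genotype label in the table with a variance trend, 2 of the latter being members, and 272 for genotype label with a filter on all 4 arrays. In the scanner files it passed 1 for challenge with the trend and 1 with normexp. Leaving out Pcna and Rrm2, chosen after the data were seen, moved no S phase minus mitosis median by more than the spot error. Arrays could not be dropped in turn, with 1 per group. No paired analysis was possible because each group has 1 array and the groups share a single replicate number.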
